A study of Homo sapiens with 12 samples.

Results

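Small nucleolar RNAs and small Cajal body RNAs were followed in human SH-SY5Y cells after siRNAs against SETD1A. Members were the array probes whose gene symbol starts with SNORA, SNORD or SCARNA and that 4 or more of the 12 arrays detected, each at a detection p under 0.01. Of the 304 such probes on the array (301 genes) 64 were kept (63 genes, since SNORA73B has 2 probes), among 15922 kept of all 47321 probes. They comprised 30 of 102 SNORA probes, 27 of 178 SNORD probes and 7 of 24 SCARNA probes. SH-SY5Y is a neuroblastoma line, and SETD1A encodes a methyltransferase of histone H3 lysine 4 that rare-variant studies link to schizophrenia. The 12 arrays formed 3 groups of 4, all of cells harvested 96 hours after transfection with a lipid reagent: siRNA s18790 against SETD1A, siRNA s18789 against SETD1A, and a control siRNA. The sources used here do not describe the 4 samples of a group as separate cultures, so each p-value is set against a spread between samples that may be technical. Both SETD1A siRNAs were set against the same 4 control arrays.

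Small nucleolar RNAs work as guides inside ribonucleoproteins. Box C/D RNAs (SNORD) pair with a target and direct fibrillarin to methylate the ribose, box H/ACA RNAs (SNORA) direct dyskerin to turn uridine into pseudouridine, and small Cajal body RNAs (SCARNA) do the same to the small nuclear RNAs of the spliceosome. A few, such as U3 and U17, are needed to cut the ribosomal RNA precursor rather than to modify it. In human cells most are released from introns of host transcripts, many of which encode ribosomal proteins, while U3 and U13 have promoters of their own. The labels name a labelling kit whose amplification starts at poly(A) tails, which mature small nucleolar RNAs lack. How much of a probe's signal came from the mature RNA, from a longer form or from the host transcript was not tested. In bulk RNA, fewer cells with a transcript and less of it per cell cannot be told apart.

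The promoters of the annotated genes that enclose called small RNAs are printed first. These genes were found by span without strand, so transcription of each small RNA from the printed promoter was not tested. HAUS6 and GAS5 had no kept probe, so their levels could not be set beside those of their small RNAs. The called SNORD3D and SNORD13 lay within no annotated gene. Each printed promoter is RefSeq sequence of GRCh38.p14, 60 bases before to 10 bases after the annotated start, read 5′ to 3′ on the gene's own strand. Capitals mark the longest unbroken run of C and T within 10 bases of the start on either side, the kind of tract with which many ribosomal protein transcripts begin. The first is HAUS6, host of SCARNA8, at chr9:19102895-19102964 on the minus strand. RPS12, host of SNORA33, lies at chr6:132814509-132814578 on the plus strand. RPL4, host of SNORD16, lies at chr15:66504846-66504915 on the minus strand, and GAS5, host of SNORD80, at chr1:173869036-173869105 on the minus strand.
HAUS6: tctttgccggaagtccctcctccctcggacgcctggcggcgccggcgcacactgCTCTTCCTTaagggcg
RPS12: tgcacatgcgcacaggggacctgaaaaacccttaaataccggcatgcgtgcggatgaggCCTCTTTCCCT
RPL4: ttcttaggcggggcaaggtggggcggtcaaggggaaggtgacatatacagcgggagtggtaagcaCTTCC
GAS5: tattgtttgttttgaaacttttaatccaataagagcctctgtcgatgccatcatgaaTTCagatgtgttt

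Within that window the run was 11 bases long in RPS12 and 9 in HAUS6, against 5 in RPL4 and 3 in GAS5. In RPS12 and RPL4 it reached the last base of the window, so these lengths are lower limits. Among the 44 host genes with a promoter window, 16 (36.4%) had a run of at least 7 bases of C and T on the sense strand, against 3743 of 27261 other genes (13.7%). The median run was 5 bases in hosts and 4 in other genes. These matches describe the letters around the annotated starts and were not tested.

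Arrays had median raw intensities from 63.1 to 70.2 and detected 29.1% to 33.6% of all probes. SETD1A, the target, had log2 intensities of 6.98, 7.45, 6.90 and 6.83 with s18790, of 7.34, 7.22, 7.10 and 7.30 with s18789, and of 7.52, 7.64, 7.50 and 8.03 in the controls. Every array of either siRNA lay below every control array, and the exact two-sided permutation p was 0.0286 for each, the smallest that 4 against 4 arrays allow. In the limma model over all kept probes SETD1A fell by 0.63 ± 0.15 (SE) on the log2 scale with s18790, to 64.6% of control (adjusted p = 0.0276), and the difference with s18789 was -0.43 (adjusted p = 0.616). The first principal component, 60.6% of the variance, set s18790 replicate 2 (83.7) and control replicate 4 (26.8) apart from the other arrays, which lay between -23.7 and 12.8. For several results that rest on either array, values without it are given too. Leaving out these arrays was chosen after seeing the data. Against control, s18790 called 1325 of 15922 kept probes with all arrays, 1793 without its replicate 2 and 2795 without both arrays. Between the siRNAs these counts were 668, 952 and 1644. Sympathoadrenal markers of the line were detected for 7 of 8 genes in each group, with a summed intensity of 33380 to 44490 with s18790, 40800 to 44680 with s18789 and 39140 to 43490 in controls. Of 11 markers of fibroblasts, epithelium, blood, endothelium and glia, DCN, LUM and EPCAM were detected, and the list summed to 2723 to 3165 with s18790, 3492 to 3838 with s18789 and 3078 to 3638 in controls. The part of these markers in the results was not tested.

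Most small RNA probes gave no signal above background. On 218 of the 304 the detection p never fell under 0.01, and 37 were detected on all 12 arrays. Of the 304 probes an array detected 53, 49, 65 and 46 with s18790, 65, 61, 68 and 69 with s18789, and 68, 60, 56 and 45 in controls, with control replicate 4 lowest of all. SNORA32 and SNORD99 were just inside the rule, on 4 arrays each. SNORA28, SNORA3A, SNORD114-2, SNORD14D, SNORD1A and SNORD33, on 3 arrays each, were just outside. A probe detected mainly in one group passed the rule through that group, so counts and medians over the kept members are given as descriptions only.

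Of the 7 kept SCARNA probes 1 passed the test with s18789 against control, that for SCARNA8, beside 0.0942% of all kept probes. With s18790 against control 0 of 7 passed, beside 8.32%. Like SCARNA11, SCARNA8 met the detection rule through the s18789 arrays in the main, where it is high, so it had to stand higher there and the count supports nothing further. SCARNA8, a box H/ACA RNA that guides pseudouridylation of U2 small nuclear RNA, had log2 intensities of 5.22, 5.88, 5.37 and 5.22 with s18790, of 5.86, 6.01, 5.90 and 5.90 with s18789, and of 5.07, 4.80, 5.02 and 4.79 in the controls. All 8 arrays of the SETD1A siRNAs lay above all 4 control arrays, and s18790 replicate 2 was the only array of its group within the s18789 range. The probe was detected on 4 of 4 s18789 arrays, 1 of 4 s18790 arrays and 0 of 4 control arrays, so its change has only a lower bound. SCARNA8 rose at least 1.19-fold with s18789 (5.92 ± 0.06 against a measured 4.92 ± 0.15 in controls, SD, n = 4 each; limma adjusted p = 0.0211). That bound sets the mean of the s18789 arrays against the lowest signal of any detected probe on each control array. With s18790 the measured difference was 0.50 (adjusted p = 0.0506), and 0.35 without s18790 replicate 2 (adjusted p = 0.0449). Between the siRNAs, s18790 minus s18789, the difference was -0.50 (adjusted p = 0.0699), and -0.65 without s18790 replicate 2 (adjusted p = 0.00377). The rise with s18789 lost its call when any one of the s18789 or control arrays was left out, with adjusted p up to 0.133 over all alternatives.

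SCARNA18 had log2 intensities of 6.14, 6.64, 6.05 and 6.14 with s18790, of 6.32, 6.85, 6.94 and 6.51 with s18789, and of 5.88, 5.91, 5.6 and 5.66 in the controls. Both siRNA groups lay wholly above the controls and overlapped each other, and the probe was detected on 4 of 4, 4 of 4 and 2 of 4 arrays of s18790, s18789 and control. The difference from control was 0.89 ± 0.17 (SE) with s18789 (adjusted p = 0.0989) and 0.48 with s18790 (adjusted p = 0.0949). When s18790 replicate 2 was left out of the model, the s18789 difference was again 0.89 and passed the test (adjusted p = 0.0147, beside 0.502% of all kept probes called in that fit). Between the siRNAs the difference was -0.41 (adjusted p = 0.173), and -0.55 without that array (adjusted p = 0.0462). SCARNA14, detected on 2 of 4 s18790, 4 of 4 s18789 and 1 of 4 control arrays, averaged 5.82 ± 0.31 with s18790, 6.11 ± 0.26 with s18789 and 5.45 ± 0.28 in controls (SD, n = 4 each), a difference of 0.66 with s18789 (adjusted p = 0.401).

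SCARNA11 was detected on 2 of 4 s18790 arrays, 4 of 4 s18789 arrays and 0 of 4 control arrays. It was at least 1.13-fold higher in s18789 than in control arrays, not past the test (measured means of 5.84 and 5.28; adjusted p = 0.72). With s18790 the measured mean was 5.76 (adjusted p = 0.209), but without s18790 replicate 2 it was 5.49, under the mean detection floor of the control arrays (5.67), so no lower bound remained. SCARNA13, also known as U93, averaged 6.16 with s18790, 6.37 with s18789 and 5.92 in controls. Its s18789 arrays lay just above the controls (lowest 6.17, against a highest control of 6.08), with a difference of 0.44 that did not pass the test. The composite RNA SCARNA10 (U85, which carries both box types and guides modification of U5) and SCARNA16 differed from control by -0.06 and 0.15 with s18790 and by 0.12 and 0.08 with s18789, and their groups overlapped. The 7 SCARNA probes ranged from clear separation (SCARNA8, SCARNA18) to full overlap (SCARNA10, SCARNA16).

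**Figure D1:**
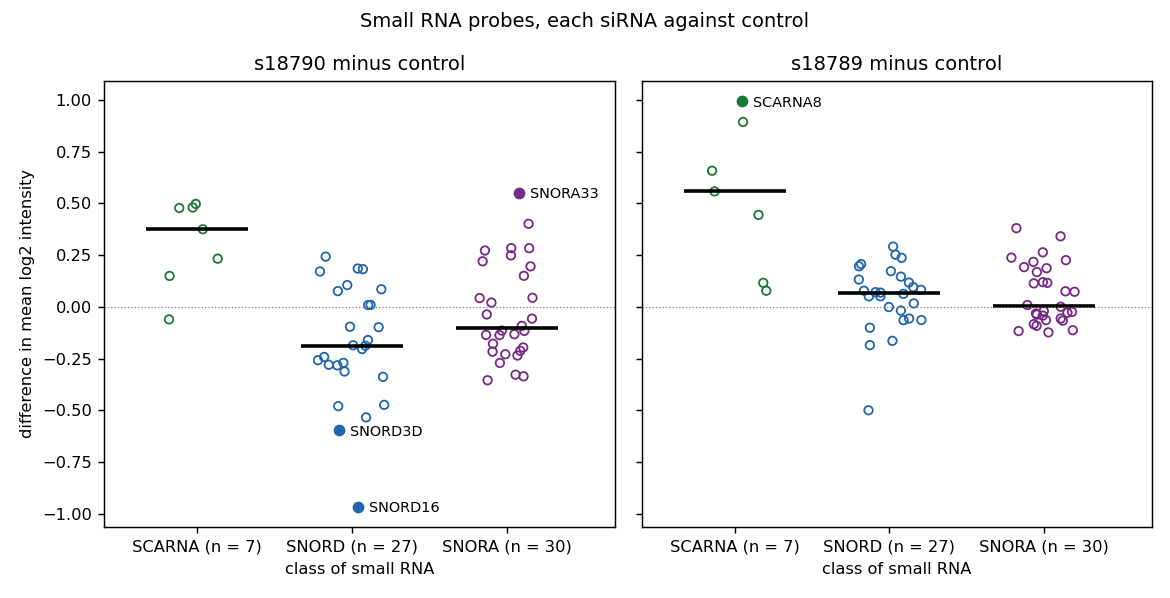
Difference in mean log2 intensity between each SETD1A siRNA and control (y axis) for the 64 kept probes, by class (x axis); filled points passed limma's adjusted p of 0.05 and are named, open points did not, and bars mark class medians. The SCARNA medians stand at 0.38 with s18790 and 0.56 with s18789, while the SNORD median is -0.19 with s18790 and 0.07 with s18789.

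The class medians put these values side by side. With s18789 the median log2 difference from control was 0.56 for SCARNA (7 of 7 above 0), 0.07 for SNORD and 0.01 for SNORA, against 0.01 for all kept probes. With s18790 it was 0.38 for SCARNA (6 of 7 above 0), -0.19 for SNORD (18 of 27 below 0) and -0.10 for SNORA, against 0.01 for all kept probes. Without s18790 replicate 2 the SCARNA median with s18790 was 0.21. On that array the class stood 0.88 above the control mean, against 0.10, 0.28 and 0.28 on the other s18790 arrays. On the s18789 arrays the class stood 0.58, 0.43, 0.73 and 0.43 above it, and on control arrays between -0.06 and 0.10. That places all 4 s18789 arrays above 3 of the 4 s18790 arrays.

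The SCARNA values were also split by detection. Over all 24 SCARNA probes, detected or not, the median difference from control was 0.05 with s18790 and 0.08 with s18789, with 16 of 24 above 0 in each comparison, against 51.8% and 50% of all 47321 probes. The 3 SCARNA probes detected on all 12 arrays (SCARNA10, SCARNA13 and SCARNA16) had medians of 0.15 with s18790 and 0.12 with s18789. The other 4 kept probes, which include the 3 not detected on most control arrays, had medians of 0.48 with s18790 and 0.78 with s18789. SCARNA probes were detected 5, 8, 6 and 4 times of 24 on the s18790 arrays, 7, 7, 7 and 8 times on the s18789 arrays and 6, 5, 3 and 3 times on the control arrays.

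**Figure D2:**
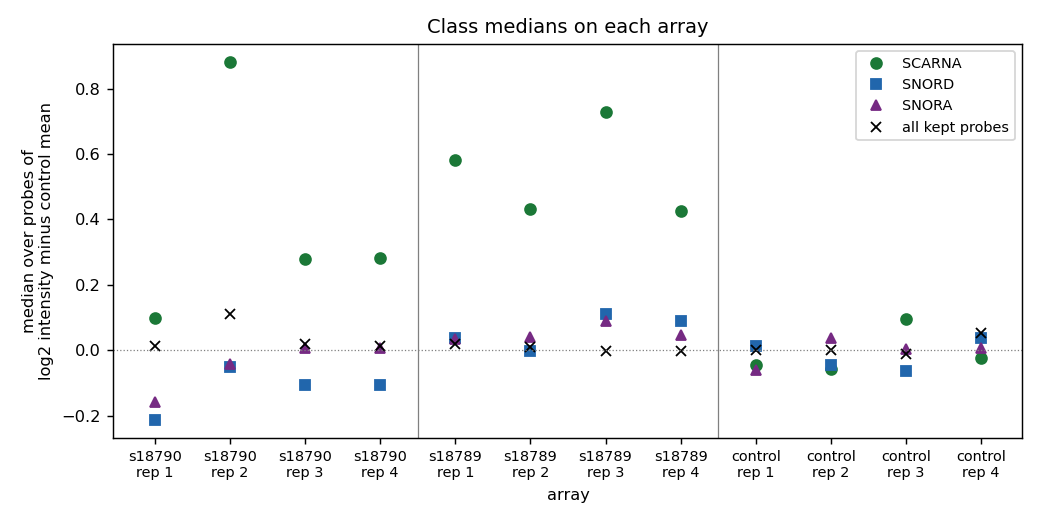
Median over the kept probes of a class of log2 intensity minus the probe's control mean (y axis) on each of the 12 arrays (x axis), with the median of all kept probes as crosses. SCARNA stands at 0.88 on s18790 replicate 2 and between 0.43 and 0.73 on the s18789 arrays, while SNORD is below 0 on all 4 s18790 arrays.

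Across the members, 3 of 64 (4.69%) were called with s18790 against control, beside 8.32% of all kept probes, and 1 of 64 (1.56%) with s18789, beside 0.0942%. With s18790 these were SNORA33, higher (4.03% of all kept probes were called higher), and SNORD16 and SNORD3D, lower (4.29%). With s18789 it was SCARNA8, higher (0.0565%, while 0.0377% were called lower). At an unadjusted p under 0.05, 6 members were higher and 9 lower with s18790 (13.6% and 11.4% of all kept probes), and 7 higher and 1 lower with s18789 (2.29% and 3.73%). Groups did not overlap for 5 members higher and 2 lower with s18790 (6.95% and 6.3% of all kept probes), and for 8 higher and 1 lower with s18789 (2.86% and 4.23%). Of the 8 that stood wholly higher with s18789, 5 were SCARNA, and the others were SNORA26, SNORA62 and SNORD96A. The SCARNA probes among them include SCARNA8, SCARNA11 and SCARNA14, detected on 0, 0 and 1 of 4 control arrays. These probes met the detection rule mainly through the s18789 arrays, where they are high, so the count supports nothing further. The standard error of a member's difference had a median of 0.15, so the 95% interval of a typical difference reached 0.33 on either side.

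**Figure D3:**
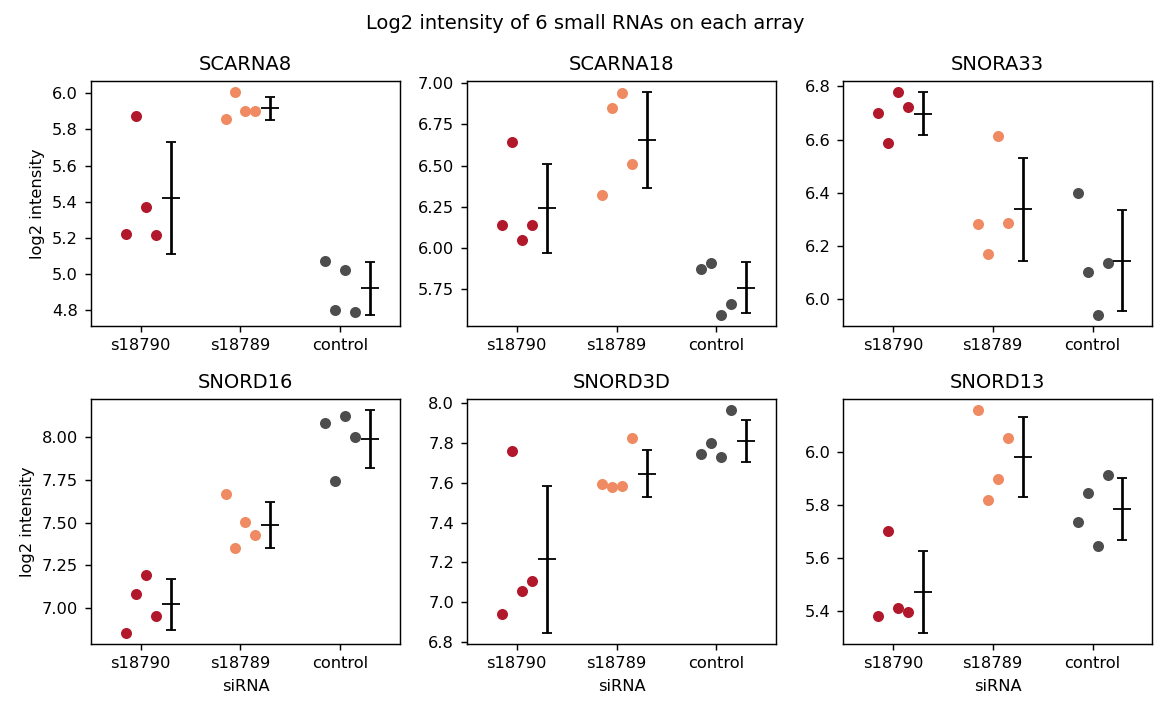
Log2 intensity (y axis) of 6 small RNAs on each array, 4 arrays per siRNA group (x axis), with the group mean and SD as a bar beside the points; each panel has its own y range. SNORD16 is lowest with s18790, intermediate with s18789 and highest in controls, without overlap, while s18790 replicate 2 departs from its group in SCARNA8, SCARNA18, SNORD3D and SNORD13.

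The largest measured fall of any member against control was in a box C/D RNA. SNORD16, a guide for ribose methylation of 18S ribosomal RNA, had log2 intensities of 6.86, 7.08, 7.20 and 6.95 with s18790, of 7.67, 7.35, 7.50 and 7.43 with s18789, and of 8.08, 7.74, 8.12 and 8.0 in the controls. The 3 groups did not overlap, and s18789 lay between the other two. SNORD16 fell by 0.96 ± 0.12 (SE) on the log2 scale with s18790, to 0.512 of its control level (7.02 ± 0.15 against 7.99 ± 0.17, SD, n = 4 each; limma adjusted p = 0.00064). It kept this call in all 22 alternatives run, with adjusted p between 0.000177 and 0.00949. The difference with s18789 was -0.50 (adjusted p = 0.226), and the difference between the siRNAs, s18790 minus s18789, was -0.47 (adjusted p = 0.0473).

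U3, the box C/D RNA needed for early cuts of the ribosomal RNA precursor, is measured by the probes for SNORD3A, SNORD3C and SNORD3D, genes of the same length (217 bases) that are near copies, so these probes may share targets. SNORD3D had log2 intensities of 6.94, 7.76, 7.06 and 7.11 with s18790, of 7.60, 7.58, 7.59 and 7.83 with s18789, and of 7.75, 7.80, 7.73 and 7.97 in the controls. Replicates 1, 3 and 4 of s18790 lay well below every control array, and replicate 2 lay among them. SNORD3D fell by 0.60 ± 0.16 (SE) with s18790 (1.51-fold lower; adjusted p = 0.0381), and by 0.78 without replicate 2 (adjusted p = 0.000566). It lost its call in 14 of 22 alternatives.

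The other U3 probes had values of the same kind. SNORD3A had 6.19, 7.26, 6.51 and 6.83 with s18790, 7.31, 7.22, 6.93 and 6.97 with s18789, and 7.0, 7.04, 7.04 and 7.60 in the controls, a difference of -0.47 with s18790 (adjusted p = 0.186). SNORD3C had 5.24, 5.96, 5.61 and 4.95 with s18790, 5.74, 5.41, 5.69 and 6.11 with s18789, and 5.97, 5.87, 5.79 and 6.06 in the controls, a difference of -0.48 with s18790 (adjusted p = 0.158). In both, s18790 replicate 2 was the highest of its group and within the control range, and without it the differences were -0.66 (adjusted p = 0.0317) and -0.65 (adjusted p = 0.028). With s18790 against control, that fit called 1793 of all 15922 kept probes. With s18789 the differences from control of SNORD3A, SNORD3C and SNORD3D were -0.06, -0.18 and -0.16, none past the test.

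SNORD13, or U13, guides acetylation of a cytidine in 18S ribosomal RNA and, like U3, lay within no other annotated gene. Its log2 intensities were 5.38, 5.70, 5.41 and 5.40 with s18790, 6.16, 5.82, 5.90 and 6.05 with s18789, and 5.74, 5.84, 5.65 and 5.91 in the controls. It was detected on 0 of 4 s18790 arrays, 4 of 4 s18789 arrays and 3 of 4 control arrays. SNORD13 thus met the detection rule only through the groups where it is high, so a lower level with s18790 was partly built in. SNORD13 was at least 1.21-fold lower with s18790 than with s18789 (measured means of 5.47 and 5.98; adjusted p = 0.0295). Against control it was at least 1.06-fold lower (measured means of 5.47 and 5.78; adjusted p = 0.114), and the measured difference passed the test without s18790 replicate 2 (-0.39, adjusted p = 0.033).

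SNORD80, a ribose methylation guide encoded in the non-coding host GAS5, had 6.96, 7.09, 7.18 and 7.24 with s18790, 7.54, 7.61, 7.62 and 7.36 with s18789, and 7.36, 7.46, 7.23 and 7.49 in the controls. The s18790 arrays lay wholly below the s18789 arrays and touched the control range only at replicate 4. SNORD80 was lower with s18790 than with s18789 by 0.42 ± 0.10 (difference -0.42, SE; adjusted p = 0.0452), while its differences from control were -0.27 with s18790 (adjusted p = 0.133) and 0.15 with s18789. SNORD69 was detected on 0 of 4 s18790 arrays, 3 of 4 s18789 arrays and 3 of 4 control arrays, with measured means of 5.17, 5.69 and 5.71. SNORD69 met the detection rule only through the s18789 and control arrays. Set against the detection floor of the s18790 arrays, its fall from control had a lower bound of 1-fold, so no fall was established. With s18790 its measured difference from control was -0.53 (limma adjusted p = 0.0614). That difference was -0.48 without s18790 replicate 2 (adjusted p = 0.0861). Without that array and control replicate 4 together it was -0.64 (adjusted p = 0.005), in a fit that called 2795 of all 15922 kept probes.

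Between the siRNAs, 3 of 64 members (4.69%) were called, all lower with s18790 than with s18789, beside 4.2% of all kept probes (1.85% lower and 2.34% higher): SNORD13, SNORD16 and SNORD80. At an unadjusted p under 0.05, 14 members were lower and 1 higher (9.75% and 11.9% of all kept probes). Groups did not overlap for 8 members, all lower with s18790 and 7 of them SNORD (6.1% of all kept probes were wholly lower and 7.88% wholly higher). The 8 were SNORD6, SNORD13, SNORD16, SNORD36C, SNORD69, SNORD80, SNORD89 and the box H/ACA RNA SNORA63. SNORD13 and SNORD69, each detected on 0 of 4 s18790 arrays, met the detection rule only through the other groups, where they are high. For these the counts support nothing further. The median difference between the siRNAs was -0.27 for SNORD (23 of 27 below 0), -0.04 for SNORA and -0.21 for SCARNA, against 0.01 for all kept probes. Over the 17 SNORD probes detected on all 12 arrays the median was -0.24, with 2 above 0. Over all 178 SNORD probes it was -0.01, with 79 above 0, most of them below detection.

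The remaining box C/D probes passed no test in any of the 3 comparisons over all 12 arrays. SNORD104 (8.0, 8.22 and 8.28 on average with s18790, with s18789 and in controls), SNORD25, SNORD30, SNORD36C and SNORD89 differed from control by -0.34 to -0.24 with s18790. SNORD4A, SNORD6, SNORD11, SNORD14A, SNORD31 and SNORD35B differed by -0.20 to -0.10, and SNORD14C, SNORD22, SNORD36A, SNORD65 and SNORD99 by 0.01 to 0.11. SNORD12C, SNORD52, SNORD68 and SNORD96A were higher on average with s18790, by 0.17 to 0.24. With s18789 every one of these differed from control by between -0.10 and 0.29. SNORD52 arrays of s18790 lay wholly above the controls by a narrow margin (lowest 6.24 against a highest of 6.22).

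Of the 30 SNORA probes 1 was called in the 3 comparisons, that for SNORA33 with s18790, beside 8.32% of all kept probes called with s18790. SNORA33 is a pseudouridylation guide encoded in the ribosomal protein gene RPS12. It had log2 intensities of 6.70, 6.59, 6.78 and 6.72 with s18790, of 6.28, 6.17, 6.61 and 6.28 with s18789, and of 6.40, 6.10, 5.94 and 6.14 in the controls. All 4 s18790 arrays lay above all control arrays, and the s18789 arrays overlapped both groups. SNORA33 rose 1.47-fold with s18790 (difference 0.55 ± 0.12, SE; 6.70 ± 0.08 against 6.15 ± 0.19, SD, n = 4 each; adjusted p = 0.0179). With s18789 the difference was 0.19 (adjusted p = 1). When arrays were scaled to a common median instead of quantile normalized, the rise with s18790 lost its call (adjusted p = 0.157), and all kept probes shifted by -0.08 in that setting.

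SNORA62, known as E2, had 6.68, 6.54, 6.77 and 6.52 with s18790, 6.78, 6.75, 6.89 and 6.73 with s18789, and 6.39, 6.44, 6.35 and 6.44 in the controls. Both siRNA groups lay wholly above the controls, with differences of 0.22 (s18790, adjusted p = 0.158) and 0.38 (s18789, adjusted p = 0.241). The U17 RNAs, which act in precursor cutting, were measured by SNORA73A and by 2 probes for SNORA73B, near copies that may share targets. Their differences from control were -0.27, -0.13 and -0.14 with s18790, and -0.03, -0.06 and 0.08 with s18789. The 4 s18790 values of SNORA73A (5.52, 5.70, 5.59 and 5.43) lay below the lowest control (5.71) by a narrow margin (limma adjusted p = 0.147). The adjusted p was 0.0825 without s18790 replicate 2, and 0.047 without that array and control replicate 4 together. The probe was detected on 1 of 4 s18790, 4 of 4 s18789 and 3 of 4 control arrays.

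The other SNORA probes passed no test in the 3 comparisons over all 12 arrays. SNORA12 differed between the siRNAs by -0.44 (adjusted p = 0.113), and without s18790 replicate 2 by -0.56, which passed the test (adjusted p = 0.0278). Between the siRNAs, that fit called 952 of all 15922 kept probes. SNORA3B, SNORA7B, SNORA26, SNORA59B, SNORA70C, SNORA80A and SNORA80E were higher on average with s18790 by 0.15 to 0.40. SNORA10, SNORA24, SNORA50C, SNORA57, SNORA59A, SNORA67 and SNORA70 differed from control by -0.12 to 0.04, and SNORA6, SNORA41, SNORA61 and SNORA64 by -0.23 to -0.11. SNORA8, SNORA11D, SNORA12, SNORA18, SNORA25, SNORA32 and SNORA63 were lower on average with s18790, by 0.18 (SNORA12, difference -0.18) to 0.35 (SNORA25, difference -0.35). With s18789 all of them differed from control by between -0.12 and 0.34.

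Genes of the RefSeq table whose span holds a member were then taken as its hosts, without regard to strand. For 58 of the 63 member genes at least 1 such gene was found, and for SNORA50C, SNORD13, SNORD3A, SNORD3C and SNORD3D none. Several genes enclosed 6 of the members. Of 51 hosts 34 were measured, and they cover 45 members. With s18790, 1 host was called higher and 2 lower than control by limma, beside 5.06% and 4.79% of the 9833 named genes, so the count of 3 of 34 is near the background of 9.85%. With s18789 limma called 0 of 34 hosts, beside 0.102% of named genes, and 1 had an unadjusted p under 0.05, beside 6.35%. Between the siRNAs it also called 0 of 34, beside 5.07%, and 5 had an unadjusted p under 0.05, beside 24.6%.

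The measured hosts of the called members did not pass the test in either comparison. RPL4, a large-subunit ribosomal protein gene that holds SNORD16, averaged 12.50 ± 0.15 with s18790, 12.42 ± 0.08 with s18789 and 12.39 ± 0.02 in controls (SD, n = 4 each), a difference of 0.11 with s18790 (adjusted p = 0.509) beside -0.96 for SNORD16. RPS12, which holds SNORA33, differed by 0.01 with s18790 (adjusted p = 0.948) beside 0.55 for SNORA33. Of the promoters printed above it has the longest pyrimidine run counted within 10 bases of the start, where runs are cut at the window's end. HAUS6, a subunit of the augmin complex that holds SCARNA8, and GAS5, which holds SNORD80, had no kept probe.

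TMEM167A, which holds SCARNA18, differed from control by -0.32 with s18790 and 0.08 with s18789, beside 0.48 and 0.89 for SCARNA18, and TIPIN, which holds SCARNA14, by 0.16 and 0.35, none past the test. ASTN2 (SNORA70C) rose by 0.78 ± 0.14 with s18790 (adjusted p = 0.00667), beside 0.25 for its small RNA. CWF19L1 (SNORA12) fell by 0.42 and ZFAS1 (SNORD12C) by 0.39 (adjusted p = 0.0357 and 0.0328), beside -0.18 and 0.24 for their small RNAs. Neither small RNA passed the test, so in these pairs the host changed and the small RNA was not called.

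Some hosts carry several members. SNHG1, a non-coding host, holds SNORD22, SNORD25, SNORD30 and SNORD31, which differed from control by 0.01, -0.34, -0.28 and -0.20 with s18790, beside -0.13 for SNHG1 itself. Without s18790 replicate 2 the 4 differed by 0.09, -0.27, -0.15 and -0.02, beside -0.05 for SNHG1. TAF1D, which encodes a subunit of the RNA polymerase I factor SL1, holds SNORA8, SNORA18, SNORA25, SNORA32 and SNORD6, which differed by -0.34, -0.20, -0.35, -0.23 and -0.10, beside -0.33 for TAF1D. These values rest on s18790 replicate 2: without it the 5 differed by -0.12, -0.08, 0.08, -0.02 and -0.06, beside 0.000253 for TAF1D. With s18789 the 5 differed by 0.01, 0.19, 0.17, -0.06 and 0.24, beside 0.36 for TAF1D. Without s18790 replicate 2 and control replicate 4 together, the 5 differed with s18789 by -0.20, 0.11, -0.02, -0.09 and 0.19. None of these small RNAs or the 2 hosts passed the test in either comparison.

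**Figure D4:**
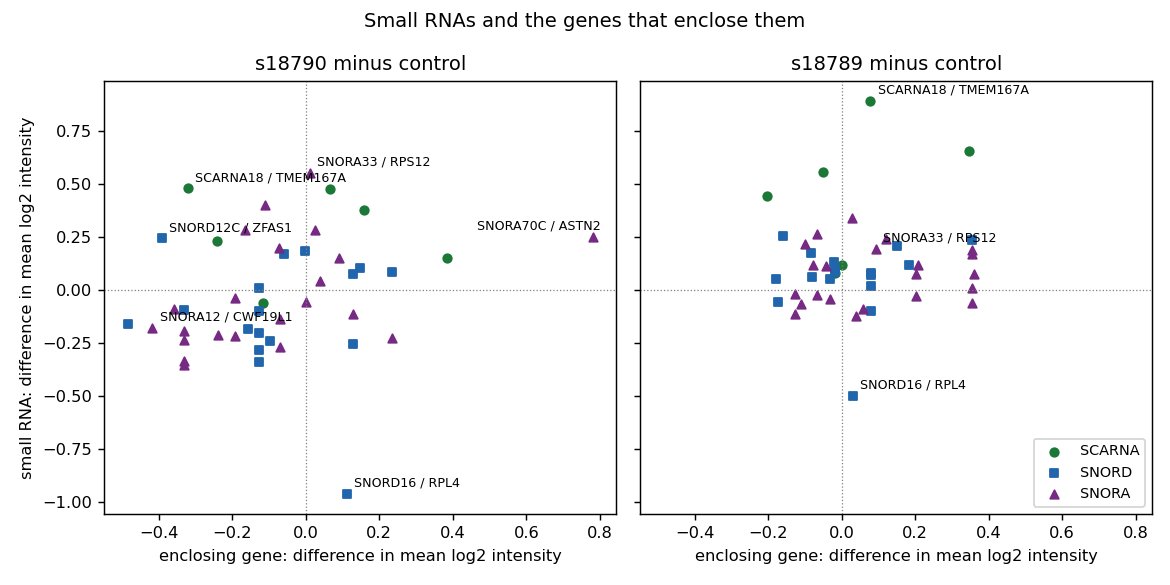
Difference from control in mean log2 intensity of each small RNA (y axis) against that of the gene enclosing it (x axis), for the 45 members with a measured host; named pairs are those described in the text. SNORD16 lies at -0.96 where its host RPL4 lies at 0.11.

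The proteins that bind, assemble and trim these RNAs were measured on the same arrays. None of the 4 box H/ACA core proteins (DKC1, NOP10, NHP2, GAR1) or the 4 box C/D core proteins (FBL, NOP56, NOP58, SNU13) was called with either siRNA by limma, 0 had an unadjusted p under 0.05, and their median differences from control were -0.03 and 0.11 with s18790 and 0.08 and 0.03 with s18789. Beside them, 9.85% of named genes were called with s18790 and 0.102% with s18789. Of 15 assembly factors, RUVBL1, an ATPase of the R2TP complex, fell with s18790 (8.91 ± 0.14 against 9.37 ± 0.10, SD, n = 4 each; difference -0.47, adjusted p = 0.0196), beside 4.79% of named genes called lower.

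Of 14 Cajal body genes 2 fell with s18790, beside 4.79% of named genes called lower. The list's median was -0.25, against 0.02 for all named genes. Without s18790 replicate 2, an alternative chosen after seeing the data, the list's median was -0.08, against 0.03. GEMIN2, a partner of SMN in building small nuclear ribonucleoproteins, had 5.85, 5.40, 6.20 and 6.13 with s18790, 6.87, 6.64, 6.83 and 6.76 with s18789, and 6.89, 7.03, 6.81 and 6.70 in the controls. Every s18790 array lay below every other array, a fall to 0.513 of control (adjusted p = 0.00334), and GEMIN2 was also lower with s18790 than with s18789 (difference -0.88, adjusted p = 0.0111). Its probe was detected on 3 of 4 s18790 arrays and on all others. SMN1, whose probe may not separate it from its near copy SMN2, fell by 0.50 with s18790 (adjusted p = 0.0391). Of 21 trimming and lariat genes 1 was called with s18790, beside the same 4.79% of named genes called lower. PARN, a deadenylase that trims the tails of box H/ACA RNAs, fell by 0.74 (6.66 ± 0.10 against 7.40 ± 0.12, SD, n = 4 each, limma adjusted p = 0.00252). The list's median was -0.17. Without s18790 replicate 2 that median was 0.01, with 1 gene called higher and 2 lower, beside 731 and 1062 of all 15922 kept probes.

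Of 17 measured host genes of the SNHG type 4 fell with s18790: SNHG11 by 0.65, SNHG6 by 0.55, CWF19L1 by 0.42 and ZFAS1 by 0.39 (adjusted p = 0.0116 to 0.0464), beside 4.79% of named genes called lower. Small non-coding RNAs of other families also held falls with s18790, 4 of 15 beside the same 4.79%, with a list median of -0.29. Without s18790 replicate 2 the medians of these lists were -0.20 and -0.35. RN7SK, the 7SK RNA that holds the elongation factor P-TEFb inactive, had 7.42, 7.51, 7.50 and 7.49 with s18790, 7.55, 7.60, 7.58 and 7.70 with s18789, and 7.92 to 8.08 in the controls. Its s18790 arrays lay below all others, a fall of 0.51 (adjusted p = 0.00335), and the difference with s18789 was -0.39 (adjusted p = 0.171). Of the U1 genes and U1 variants, RNVU1-7 fell by 0.72, RNU1-3 by 0.47 and RNVU1-18 by 0.39 with s18790, and these near copies may share probe targets. RNVU1-7 was detected on 1 of 4 s18790 arrays, 4 of 4 s18789 arrays and 4 of 4 control arrays, so its difference is set against a group mostly not above background.

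With s18789, limma called 0 genes in each of the 7 lists, between 0 and 2 genes of a list had an unadjusted p under 0.05 (6.35% of named genes did), and their medians lay between -0.03 and 0.08. Between the siRNAs GEMIN2, RNU1-3 (difference -0.58, adjusted p = 0.0179) and RNVU1-7 (-0.71, adjusted p = 0.00382) were lower with s18790, beside 2.06% of named genes called lower.

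**Figure D5:**
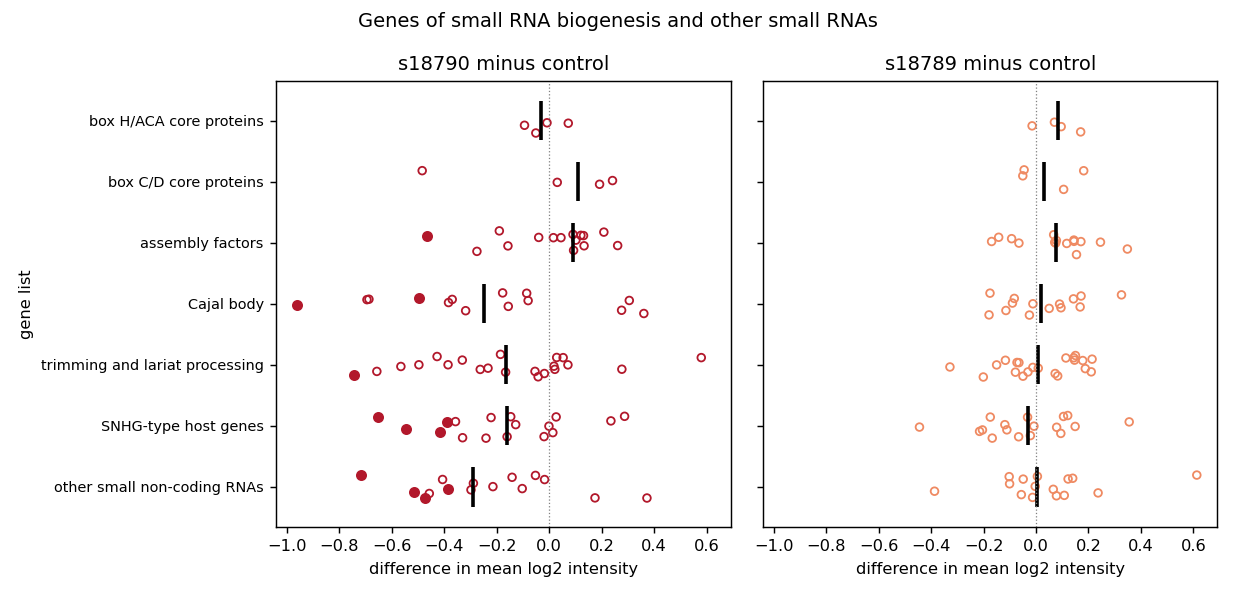
Difference from control in mean log2 intensity (x axis) for measured genes of 7 lists (rows), with s18790 left and s18789 right; filled points passed limma's adjusted p of 0.05 and bars mark list medians. With s18790 the filled points are all below 0, from -0.96 (GEMIN2) to -0.39, and with s18789 there are none.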

How the data were processed

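The deposited table held linear bead intensities, 1 value per probe and array, made with GenomeStudio (version not given in the sources used here) per the submitters' processing notes, with a detection p-value beside it, per the file headers. The authors' deposited log2 values of the same arrays served as an alternative. Intensities were background corrected through the detection p-values (normal-exponential model, offset 16), quantile normalized and put on the log2 scale with limma 3.58.1 in R 4.3.3. All 12 arrays entered 1 linear model with a mean per group (9 residual degrees of freedom). A probe was called at a Benjamini-Hochberg adjusted p under 0.05 over the 15922 kept probes, and named genes were represented by 1 probe each. The number of arrays limits precision.

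Every kept member is named; full values went to called members, SCARNA8, SNORD16 and the hosts of called members, and to called members of the gene lists. Other members described with their values were chosen after these were seen. Members and lists were chosen with earlier results of these data known. Enclosing genes were found by span in RefSeq annotation of GRCh38.p14, without strand, which that table does not hold, although the planned rule asked for the same strand. A planned search for a box motif inside the small RNAs was not run, since 0 of them had a promoter window. Deposited values name no genome build. The fit was also run on simulated data with independent noise on each probe and array and no outlying array. That run cannot show how the fit handles arrays such as s18790 replicate 2. Alternatives changed background, offset, scaling, filter, source of values, samples and weights.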

Additional observations from a re-analysis of the deposited data

Results flagged for a closer look

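Among the 192 groups of 4 arrays formed by the 64 members, 11 held an array whose gap to its nearest neighbour exceeded Dixon's 95% critical value, and chance gives this in about 1 of 20 groups. Control replicate 4, which stood apart on the first principal component, was the odd array in 5 of them. It read 7.52 for SNORA10 (other controls 6.90 to 6.98), 6.79 for SNORD12C (6.09 to 6.17) and 7.60 for SNORD3A (7.0 to 7.04), and low for SNORA25 at 6.32 (7.05 to 7.15) and SNORA8 at 5.52 (6.31 to 6.45). Replicate 2 of s18790, the other outlying array, was highest of its group for SCARNA18 at 6.64 (6.05 to 6.14), SNORD13 at 5.70 (5.38 to 5.41) and SNORD4A at 6.74 (6.25 to 6.30). The remaining odd arrays were s18790 replicate 1 for 1 of the SNORA73B probes at 5.62 (5.84 to 5.87), s18790 replicate 4 for SNORD36C at 6.70 (7.32 to 7.44) and s18789 replicate 4 for SNORD3D at 7.83 (7.58 to 7.60).

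The siRNAs differed from each other by test for SNORD13 (-0.508, s18790 minus s18789), SNORD16 (-0.465) and SNORD80 (-0.417). SNORD13 was detected on 0 of 4 s18790 arrays, so its lower level there is partly built into the detection rule. For SNORD16 both siRNAs lay below control, while for SNORD13 and SNORD80 the s18789 mean was above control and the s18790 mean below it.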

How the results depend on the processing

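With s18789, the count of called members (1) was 0 with an offset of 50, with the authors' log2 values and with the filter at all 12 arrays, 2 with only the compared groups in the fit, 6 with array weights, 3 without s18790 replicate 2 and control replicate 4, and 0 to 2 when single arrays were left out. Over all 15922 kept probes the s18789 calls were 15 in the main fit and 41 with only the compared groups. They were 385 with weights, 124 without both arrays and 80 without s18790 replicate 2. With s18790 the count of called members (3) was 1 with only the compared groups, 9 with weights, 8 without both arrays and 1 to 7 over single arrays, the 7 without s18790 replicate 2. Calls over all 15922 kept probes moved too, from 1325 to 430 with only the compared groups and 3117 with weights. They were 2795 without both arrays and 1793 without s18790 replicate 2. Between the siRNAs the count of called members (3) was 6 under median scaling, 0 with only the compared groups, 10 with weights, 9 without both arrays and 0 to 7 over single arrays, the 7 again without s18790 replicate 2. Over all 15922 kept probes these calls went from 668 to 693 under median scaling and 200 with only the compared groups. They were 1577 with weights, 1644 without both arrays and 952 without s18790 replicate 2. The replicate numbers are shared by the groups but did not pair the arrays (correlations of same-numbered deviations from -0.583 to 0.575). With the replicate block the called members were 0, 2 and 0 (s18789, s18790, between), and 3, 834 and 296 of all probes against 15, 1325 and 668. SETD1A lost its call with s18790 in 7 of 22 alternatives: the difference stayed at -0.63 without a detection filter (adjusted p = 0.0502), with only the compared groups (0.0999) and with the block (0.051), and the others were without control replicate 1 or 2 or without s18790 replicate 1 or 4 (up to 0.073). It ranged from -0.77 to -0.51 over single arrays, and without both arrays the difference between the siRNAs was -0.33 (adjusted p = 0.0407). SNORA33 lost its call in 4 of 22 alternatives, and between the siRNAs SNORD13 in 10 of 21, SNORD16 in 13 of 22 and SNORD80 in 11 of 22. The class medians kept their sign in every alternative except SNORA with s18789 (-0.02 to 0.06). Their size moved past the spread in some alternatives, most often for SNORA with s18790 (9 of 22, range -0.21 to -0.06). SNORD between the siRNAs moved in 5 of 22 (range -0.41 to -0.14) and SCARNA with s18789 in 4 of 22 (range 0.12 to 0.60). Of the 7 gene lists, the trimming list's median with s18790 moved past its spread without s18790 replicate 2 (0.01 against -0.17), in an alternative chosen after seeing the data. Causes were not tested. Members near background are limited by signal: without the filter SNORD83B, SNORD95 and SCARNA22 were also called.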
